A study of Mus musculus with 6 samples.

Results

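The 6 aquaporin genes Aqp1, Aqp3, Aqp4, Aqp7, Aqp8 and Aqp11 were followed in jejunal intestinal epithelial cells (IEC) of control and Hdac1/2-deleted mice, out of 19616 genes in the count table. They were taken by gene symbol and were selected on the measured difference between these groups, so their values in that contrast are given as a description, without p-values. All 6 passed the filter on low counts, which kept 15618 genes. Messenger RNA was sequenced from IEC released from the jejunum with EDTA. The 3 control mice, C1, C3 and C3-3, were wild-type. The 3 Hdac1/2-deleted mice, H1, H5 and H9, were villin-Cre Hdac1-/-; Hdac2-/-. All were 3 months old, on a mixed C57BL/6J X 129SV X CD1 background, with 1 library per mouse. The villin promoter drives Cre in epithelial cells of the intestine, so other cells in the preparation keep both genes.

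Aquaporins are channels in cell membranes that let water pass along osmotic gradients. Some, the aquaglyceroporins, also carry glycerol, several let hydrogen peroxide through, and a few remote relatives sit on membranes inside the cell. In the intestine, water follows the salt, sugar and amino acids that enterocytes absorb and the chloride that crypt cells secrete, through channels and between cells. Among the genes described here, Aqp1, Aqp4 and Aqp8 encode water channels, Aqp3 and Aqp7 encode aquaglyceroporins, and Aqp11 encodes a channel of the endoplasmic reticulum.

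Library totals ran from 36111035 to 65902344 counts on genes. Levels are CPM, the counts scaled to library size with TMM factors, and a floor of 3 counts, which covers counting error only, lay at 0.0405 to 0.0790 CPM. Hdac1 fell from 40.8 ± 7.33 to 3.77 ± 1.16 CPM (SD, n = 3), or by 3.43 on the log2 scale (standard error 0.26), and passed at an adjusted p of 2.9e-05 (Benjamini-Hochberg, quasi-likelihood test of edgeR). Hdac2 read 32.9, 23.6 and 26.5 CPM in control mice and 26.6, 25.4 and 21.4 CPM in Hdac1/2-deleted mice, so the ranges overlapped, with a log2 fold change of -0.18 (standard error 0.17) that was not called. The RNA therefore does not show the Hdac2 deletion that the labels give. Counts over the whole gene may include transcript outside the deleted part, whose position is not given in the sources used here, so they do not check that label, and Hdac1/2-deleted is used here as the labelled group. The jejunal factor Gata4 was at 166 to 206 CPM in control and 161 to 182 CPM in Hdac1/2-deleted IEC, and 9 epithelial markers summed to 12895 to 14753 and 10331 to 12697 CPM. Of the 3 ileum markers, Slc10a2 was called higher, with means of 1.15 and 6.44 CPM. Fabp6 read 0.317, 0.216 and 7.02 CPM in C1, C3 and C3-3 and 1.62, 5.45 and 8.73 CPM in H1, H5 and H9. Osr2 had means of 45.0 and 31.4 CPM, and neither was called. The part of gut segment in the aquaporin levels was not tested. Summed enterocyte markers went from 82388 to 96406 CPM in control IEC to between 31285 and 42841 CPM in Hdac1/2-deleted IEC, and 5 of those 10 genes were called lower and 1 higher. Crypt markers summed to 454 to 652 and 216 to 383 CPM. In bulk RNA, fewer cells of a type and less RNA per cell cannot be told apart. C3 stood apart from the other libraries in genes of the sex chromosomes. Ddx3y, Uty, Kdm5d and Eif2s3y summed to 3082 counts in C3 and to 1 to 13 counts in the others, whereas Xist had 13 counts in C3 and 2413 to 6883 in the others. The labels give no sex.

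Genome positions are given here from GENCODE release M21 on GRCm38. Aqp1 spans chr6:55336432-55348555 on the plus strand. Aqp8 spans chr7:123462291-123468004 on the plus strand, and Aqp11 chr7:97724006-97738289 on the minus strand. Aqp3, at chr4:41092722-41098183, and Aqp7, at chr4:41033074-41048139, are neighbours on the minus strand, 44583 bases apart. Counts on any of these genes come from whole gene models and do not separate exons or isoforms.

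The 250 bases before the start of the 3 genes called lower below, and of Aqp11 and Aqp5, which were higher in every Hdac1/2-deleted mouse, are shown so that their promoter sequence can be compared. They are from RefSeq on GRCm38.p6, read 5′ to 3′ on the gene's own strand, and capitals mark CG dinucleotides, the sites of DNA methylation in mammals. CG was chosen for marking after the expression values were known. The windows are chr6:55336049-55336298 (plus) for Aqp1, chr4:41047963-41048212 (minus) for the downstream start of Aqp7, chr7:123462044-123462293 (plus) for Aqp8, chr7:97738248-97738497 (minus) for Aqp11 and chr15:99590778-99591027 (plus) for Aqp5. RefSeq starts can lie some way from the GENCODE gene ends given above.
Aqp1: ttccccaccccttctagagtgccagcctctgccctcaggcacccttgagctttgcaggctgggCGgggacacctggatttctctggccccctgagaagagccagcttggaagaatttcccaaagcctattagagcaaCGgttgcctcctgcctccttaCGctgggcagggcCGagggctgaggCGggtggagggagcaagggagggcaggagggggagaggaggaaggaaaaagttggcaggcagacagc
Aqp7: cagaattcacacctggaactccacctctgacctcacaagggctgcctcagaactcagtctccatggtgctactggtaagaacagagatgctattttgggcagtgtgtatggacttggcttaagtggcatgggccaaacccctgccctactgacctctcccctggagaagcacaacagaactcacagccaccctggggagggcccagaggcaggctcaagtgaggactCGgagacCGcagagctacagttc
Aqp8: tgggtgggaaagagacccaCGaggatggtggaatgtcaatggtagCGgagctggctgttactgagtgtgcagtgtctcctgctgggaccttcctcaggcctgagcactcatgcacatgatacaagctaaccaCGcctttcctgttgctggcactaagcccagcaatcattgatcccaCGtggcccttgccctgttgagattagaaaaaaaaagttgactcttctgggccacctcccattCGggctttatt
Aqp11: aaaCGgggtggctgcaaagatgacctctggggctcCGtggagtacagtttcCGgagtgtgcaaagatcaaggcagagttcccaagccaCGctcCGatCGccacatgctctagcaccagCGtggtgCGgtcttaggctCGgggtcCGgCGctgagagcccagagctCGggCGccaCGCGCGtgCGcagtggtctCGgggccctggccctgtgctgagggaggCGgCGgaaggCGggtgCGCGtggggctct
Aqp5: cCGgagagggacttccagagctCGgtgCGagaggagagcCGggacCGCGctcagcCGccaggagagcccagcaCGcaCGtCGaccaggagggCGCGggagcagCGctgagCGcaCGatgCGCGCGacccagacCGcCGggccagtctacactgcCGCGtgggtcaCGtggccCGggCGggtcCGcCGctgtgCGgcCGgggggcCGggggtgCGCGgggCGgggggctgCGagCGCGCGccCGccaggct

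Over these 250 bases, the windows of Aqp1, Aqp7 and Aqp8 hold 5, 2 and 5 CG dinucleotides, that of Aqp11 23 and that of Aqp5 38. The same stretch holds 14 at Aqp3 and 3 and 1 at the Aqp9 starts, genes that like Aqp11 were not called. Because the printed genes were picked by their expression difference, nothing is read from these counts. Over the full RefSeq windows of 300 bases, which add 50 bases after the start, Aqp1 has 8, Aqp7 3, Aqp8 6, Aqp3 21, Aqp11 27, Aqp5 46 and the Aqp9 starts 4 and 1, and the median of the 32851 mouse windows used is 7. The share of all windows with fewer CG dinucleotides is 84.5% for Aqp11, 98.4% for Aqp5 and 75.2% for Aqp3. It is 51.4% for Aqp1, 43.6% for Aqp8, 23.3% for Aqp7, and 31.4% and 5.43% for the Aqp9 starts. No window of Aqp4 was used, so this gene is missing from the comparison. The upstream Aqp7 start, whose window overlaps the one printed, has 0. Motifs were searched on both strands. The TATA box TATAAA, in 13.6% of all windows, was found in the Aqp3 window alone among the aquaporin windows, 29 bases before the start. The GC box GGGCGG, in 35.7% of windows, was found at Aqp1, Aqp3 and Aqp5, with 3 matches at Aqp5. The nuclear receptor half-site AGGTCA, in 16.3% of windows, was found at Aqp11 and in both Aqp7 windows. The match 49 bases before the upstream Aqp7 start and that 223 bases before the downstream start are the same site. Another lies 101 bases before the downstream start. The HNF4 motif CAAAGT, present in 14.4% of windows, was found at Aqp3 and in 1 Aqp9 window. That Aqp9 window also held the CDX motif TTTATG, present in 11.9%. The NFAT core TGGAAA, present in 21.4%, was found at the upstream Aqp7 start and in the other Aqp9 window, and the HNF1 half-site GTTAAT, present in 7.10%, in none. The Aqp8 window held none of the 7 motifs. These are matches of letters and do not show binding.

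Of the 6 genes, Aqp1, Aqp7 and Aqp8 were called lower in Hdac1/2-deleted IEC, 0 were called higher, and Aqp3, Aqp4 and Aqp11 were not called. A call needs a 2-fold difference and a Benjamini-Hochberg adjusted p no higher than 0.05 in edgeR's quasi-likelihood fit over all 15618 genes, of which 12.7% were called lower, 12.4% higher and 25.2% in either direction. The control and Hdac1/2-deleted ranges did not overlap for 5 of the 6, lower for 3 and higher for Aqp4 and Aqp11. Over all tested genes 53.2% did not overlap, 26.6% lower and 26.7% higher. The median log2 fold change of the 6 was -1.53, beside -0.01 over all genes. Since the genes were chosen knowing this contrast, a call on any of the 6 describes where it lay against these limits and is not a test of it. For the same reason nothing is read from these shares.

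**Figure D1:**
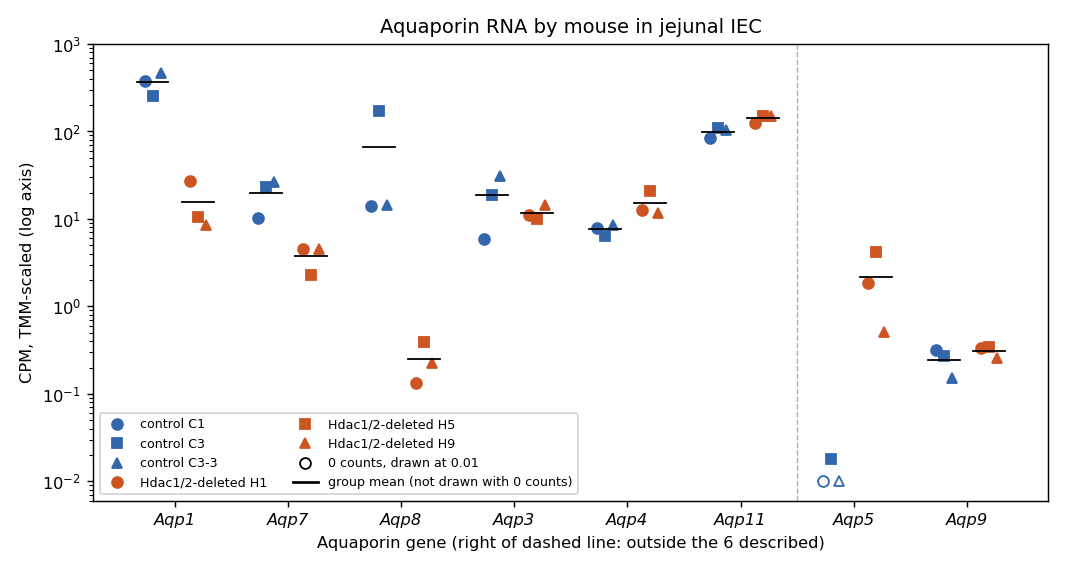
Level of each aquaporin gene in each mouse, as CPM scaled with TMM factors on a log axis; blue points are the 3 control mice, orange points the 3 Hdac1/2-deleted mice and short lines the group means, with open symbols for 0 counts. Aqp1, Aqp7 and Aqp8 lie lower in every Hdac1/2-deleted mouse, Aqp8 of C3 lies at 169 CPM far above the other controls, Aqp4 and Aqp11 lie higher, and Aqp3 overlaps.

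Aqp1, the widely expressed water channel of red cells, endothelium and absorptive and secretory epithelia, had the highest mean level of the 6 in control IEC. Its level was 377.4 CPM in C1, 252 CPM in C3 and 470 CPM in C3-3, against 27.2 CPM in H1, 10.6 CPM in H5 and 8.53 CPM in H9. The lowest control mouse was still well above H1, which in turn was above H5 and H9. The means were 367 ± 109 and 15.4 ± 10.2 CPM (SD, n = 3), a level 23.7-fold lower in Hdac1/2-deleted IEC, with a log2 fold change of -4.57 (standard error 0.53). With any mouse left out, the log2 fold change lay between -5.26 and -4.27.

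Other cells that carry Aqp1 were checked by their markers. The 10 endothelial markers summed to 7.45 to 11.5 CPM in control IEC and 18.4 to 22.1 CPM in Hdac1/2-deleted IEC. Most of that sum, and of its rise, came from Lyve1 and Prox1. Their means went from 4.84 to 7.88 CPM for Lyve1, not called, and from 1.49 to 8.76 CPM for Prox1. Of the others, Plvap, Kdr, Cdh5 and Emcn had lower means after deletion, and Tie1, Pecam1, Tek and Vwf higher means. Tie1, from 0.0492 to 0.419 CPM, was called higher, as was Prox1. Pecam1 went from 1.26 to 1.86, Plvap from 0.670 to 0.241 and Cdh5 from 0.213 to 0.180 CPM, and none of them was called. Vwf was not called either. Kdr, from 0.214 to 0.114 CPM, Emcn and Tek were too low to test. The 6 red cell markers summed to 3.13, 75.2 and 11.8 CPM in C1, C3 and C3-3 and to 13.3 to 22.6 CPM in Hdac1/2-deleted mice. The 7 stroma and muscle markers summed to 59.0, 42.5 and 3.16 CPM in C1, C3 and C3-3 and to 1.97 to 6.36 CPM in Hdac1/2-deleted mice, and 3 of them, Acta2, Des and Myh11, were called lower. The part of these cells in the Aqp1 level was not tested.

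Aqp8, a water channel that also passes hydrogen peroxide and ammonia and is known from the apical side of intestinal and ductal epithelia, showed the largest difference of the 6 and, relative to its mean, the largest control spread. It had 933 counts in C1, 9394 in C3 and 765 in C3-3, but 10 in H1, 15 in H5 and 14 in H9. As CPM these were 14.1, 169 and 14.4 in control mice, and 0.135, 0.395 and 0.228 in Hdac1/2-deleted mice. C1 and C3-3 were close to each other, C3 was far above both, and all Hdac1/2-deleted mice were above the 3-count floor but far below every control. The means were 65.9 ± 89.4 and 0.252 ± 0.132 CPM (SD, n = 3), 261-fold apart, with a log2 fold change of -8.13 (standard error 1.64). Without C3 the level was 56.4-fold lower in Hdac1/2-deleted IEC and the log2 fold change was -5.88. Aqp8 was no longer within the limits of a call without H1, at -7.77, or without H9, at -8.10.

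The excess in C3 was unusual for a gene of this abundance. Aqp8 was 11.9-fold higher in C3 than in the mean of C1 and C3-3, a ratio that 32 of 15618 tested genes reached (0.205%), and only 5 of these, Aqp8 included, averaged 1 or more in log2 CPM. The others were Ttbk1, the heat shock genes Hspa1a and Hspa1b, and Peg10. That average is over all 6 mice. Ttbk1 read 0.684 and Peg10 0.108 CPM in C3, against means of 4.83 and 5.87 CPM in Hdac1/2-deleted IEC. Both therefore passed the limit on abundance through the Hdac1/2-deleted mice. The other members did not follow, since the same ratio was 0.596 for Aqp1, 0.770 for Aqp4, 1.004 for Aqp3, 1.16 for Aqp11 and 1.25 for Aqp7. The coefficient of variation of Aqp8 over control mice was 136%, above that of 98.9% of tested genes. C3 was also the library with Y-linked counts and the highest red cell marker sum, and the part of either in its Aqp8 level was not tested. The 4 colon markers summed to 183, 152 and 164 CPM in C1, C3 and C3-3, of which Slc26a3, also an enterocyte gene, made 174, 146 and 154 CPM. Hoxb13 read 0, 0.234 and 0.151 CPM, highest in C3, and Car1 0.0453, 0 and 0 CPM. The part of colon RNA in the Aqp8 level of C3 was not tested.

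Aqp4, a water channel best known from brain astrocytes and gastric parietal cells, was higher in Hdac1/2-deleted IEC, just under the 2-fold limit. It read 7.84, 6.34 and 8.62 CPM in C1, C3 and C3-3, and 12.6, 20.8 and 11.8 CPM in H1, H5 and H9. Every Hdac1/2-deleted mouse was above every control, with H5 the highest. The means were 7.60 ± 1.16 and 15.0 ± 5.02 CPM (SD, n = 3), and the log2 fold change was 0.98 (standard error 0.26). It passed 2-fold, and was then called higher, with library totals in place of TMM factors, at 1.17, and without H1 (1.10), H9 (1.14), C1 (1.01) or C3-3 (1.09). The gene spans chr18:15389496-15410982 on the minus strand of GRCm38 and overlaps an annotated antisense transcript, AC133525.2. The library kit keeps the strand, but the strand setting of the counting is not given in the sources used here, so Aqp4 counts could include reads of that transcript. The 7 stomach markers summed to 0.211 to 1.69 CPM in control and 0.390 to 0.895 CPM in Hdac1/2-deleted IEC. The parietal cell pump subunit Atp4b was at 0 CPM in all controls and at 0.162, 0.0263 and 0.146 CPM in H1, H5 and H9. Its H5 value was below the floor. The other subunit, Atp4a, had means of 0.283 CPM in control and 0.242 CPM in Hdac1/2-deleted IEC and was not called. Gif, Gkn2 and Muc5ac had lower means after deletion, and Gkn1 and Tff1 higher means. The part of stomach RNA in the Aqp4 level was not tested.

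Aqp7, the aquaglyceroporin that lets glycerol out of adipocytes, was called lower in Hdac1/2-deleted IEC, unlike its neighbour Aqp3. Its level was 10.2 CPM in C1, 23.0 CPM in C3 and 26.5 CPM in C3-3, against 4.49 CPM in H1, 2.29 CPM in H5 and 4.50 CPM in H9. The groups did not overlap, although C1 had less than the other controls. The means were 19.9 ± 8.55 and 3.76 ± 1.28 CPM (SD, n = 3), 5.29-fold lower, with a log2 fold change of -2.39 (standard error 0.41) and a range of -2.70 to -2.13 with any mouse left out. Among adipocyte markers, Fabp4 was at 0 to 0.181 CPM over all 6 mice, and Cidec, which IEC also express, read 95.3 to 131 CPM in control and 62.8 to 82.8 CPM in Hdac1/2-deleted IEC. Adipoq, Plin1 and Lep were not analysed here.

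Aqp3, an aquaglyceroporin of the basolateral membrane of many epithelia, showed no such separation. It read 5.93 CPM in C1, 18.7 CPM in C3 and 31.3 CPM in C3-3, and 11.0, 9.90 and 14.3 CPM in H1, H5 and H9. All Hdac1/2-deleted mice lay inside the control range, which was wide, with a coefficient of variation of 68.1%, above that of 94.0% of tested genes. The log2 fold change was -0.67 (standard error 0.54), with means of 18.6 ± 12.7 and 11.7 ± 2.31 CPM (SD, n = 3). The value rested on single controls, at -1.08 without C1, when Aqp3 was called lower, and -0.06 without C3-3. Aqp3 and Aqp7 were both lowest in C1 and highest in C3-3 among controls. Leukocyte markers were likewise lowest in C1, where 8 genes summed to 41.1 CPM, but highest in C3, at 115 CPM against 94.6 CPM in C3-3. In Hdac1/2-deleted mice they summed to 30.5 to 55.2 CPM. Of these genes 1, Cd8a, was called lower, from 39.4 ± 19.3 to 15.8 ± 4.02 CPM (SD, n = 3). The part of leukocytes in the Aqp3 and Aqp7 levels was not tested.

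Aqp11, a remote member of the family on the endoplasmic reticulum, whose loss is known to vacuolate kidney tubule cells, was the steadiest of the 6. It read 83.6, 108 and 104 CPM in C1, C3 and C3-3, and 126, 148 and 149 CPM in H1, H5 and H9. Each Hdac1/2-deleted mouse was above each control, by a modest margin. The means were 98.6 ± 13.2 and 141 ± 13.1 CPM (SD, n = 3), and the log2 fold change of 0.52 (standard error 0.15) was below the 2-fold limit of a call. Its coefficients of variation, 13.4% and 9.32%, were below those of most tested genes. With library totals alone, which moved the median of all genes from -0.01 to 0.18, the value was 0.71.

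**Figure D2:**
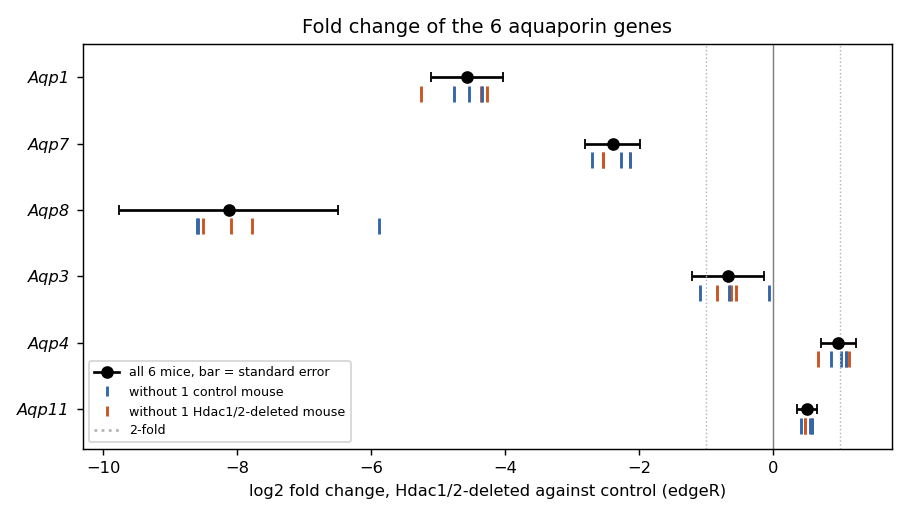
Log2 fold change of each of the 6 aquaporin genes, Hdac1/2-deleted against control, from edgeR's fit over all genes; black points are all 6 mice with the standard error as a bar, and ticks are the fits without 1 control (blue) or 1 Hdac1/2-deleted mouse (orange). Aqp1 and Aqp7 stay below -2 in every fit, Aqp8 moves to -5.88 without C3, and the Aqp4 ticks fall on both sides of the 2-fold line.

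Levels of different genes were compared as CPM per kilobase of annotated exon. In control IEC Aqp1 came first, at 140 ± 41.6, followed by Aqp8 at 41.7 ± 56.6, Aqp11 at 10.5 ± 1.40, Aqp3 at 10.2 ± 6.94, Aqp7 at 7.04 ± 3.02 and Aqp4 at 1.22 ± 0.186 CPM per kilobase (SD, n = 3). Neighbours from Aqp1 down to Aqp7 overlapped in range, whereas Aqp4 was below Aqp7 in all 3 mice with no overlap. In Hdac1/2-deleted IEC the order was Aqp11 at 15.0 ± 1.40, Aqp3 at 6.41 ± 1.26, Aqp1 at 5.88 ± 3.88, Aqp4 at 2.41 ± 0.806, Aqp7 at 1.33 ± 0.451 and Aqp8 at 0.160 ± 0.0833. Here Aqp11 stood above Aqp3 and Aqp4 above Aqp7 without overlap, and the ranges of Aqp3, Aqp1 and Aqp4 overlapped only through Aqp1, which was above Aqp4 in all 3 mice. The order was the same per kilobase of the longest transcript.

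The sum over all 8 aquaporin genes in the table, the 6 plus Aqp5 and Aqp9, was 170, 234 and 227 CPM per kilobase in C1, C3 and C3-3. In H1, H5 and H9 it was 34.2, 31.3 and 30.8, so the Hdac1/2-deleted mice were close to one another and far below every control. Aqp1 made up 84.7%, 41.1% and 78.8% of that sum in C1, C3 and C3-3, and 30.3%, 12.9% and 10.6% in H1, H5 and H9. Aqp8 held 45.7% of the sum in C3, where the Aqp1 share was lowest of the controls, against 5.25% in C1 and 4.01% in C3-3. The share of Aqp11 was 4.86% to 5.23% in controls and 39.1% to 51.4% after deletion, while its level was 1.43-fold higher. Aqp3 held 4.61 ± 2.82% and 20.1 ± 4.65%, and Aqp4 0.595 ± 0.154% and 7.57 ± 2.69% (SD, n = 3).

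**Figure D3:**
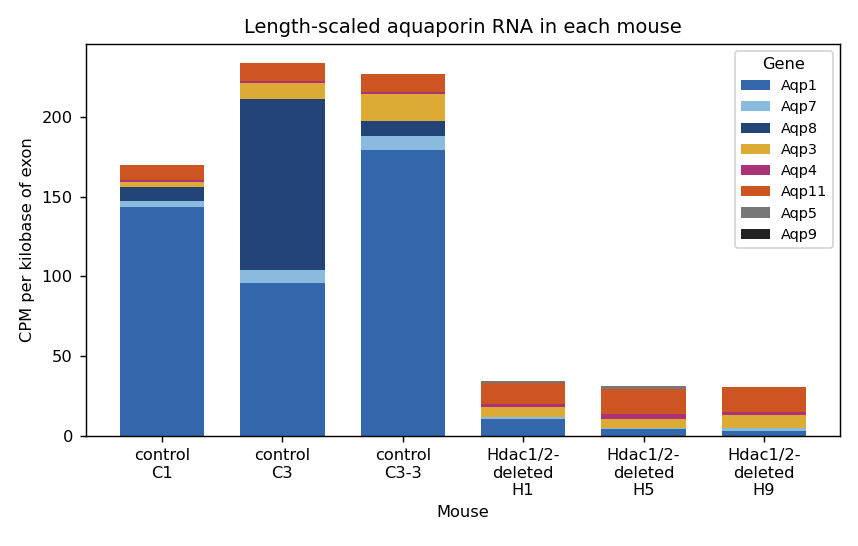
Aquaporin RNA in each of the 3 control and 3 Hdac1/2-deleted mice as CPM per kilobase of exon, stacked by gene. The bars reach 170 to 234 in control mice, mostly Aqp1 except for the Aqp8 share of C3, and 30.8 to 34.2 in Hdac1/2-deleted mice, where Aqp11 is the largest part in each.

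The table held 2 further family members. Aqp5, the water channel of salivary, lacrimal and airway glands, at chr15:99590782-99594829 on the plus strand, rose in Hdac1/2-deleted IEC. It had 0, 1 and 0 counts in C1, C3 and C3-3 and 137, 158 and 31 counts in H1, H5 and H9, or 1.85, 4.16 and 0.504 CPM. It was below the floor in every control and above it in every Hdac1/2-deleted mouse. The ratio of the summed counts, scaled by library, was 328, with an exact 95% counting interval of 58.5 to 13014 that does not include the spread between mice. On the log2 scale the change fitted by edgeR was 8.09 (standard error 1.18). This value depends on the prior count and was 5.76 with a prior count of 2. Aqp5 passed the filter on low counts only through the Hdac1/2-deleted mice, so its difference is given as a description, without a p-value. Per kilobase, Aqp5 came to 0.835 ± 0.711 CPM in Hdac1/2-deleted IEC, below the mean of Aqp7, with overlapping ranges.

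Aqp9, an aquaglyceroporin of liver and leukocytes, at chr9:71110659-71168682 on the minus strand, was low throughout, with 8 to 25 counts per mouse. It read 0.317, 0.270 and 0.151 CPM in control mice and 0.337, 0.342 and 0.260 CPM in Hdac1/2-deleted mice. The ranges overlapped, and the fitted difference was 0.33 on the log2 scale (standard error 0.45), not called at an adjusted p of 0.59 in edgeR (Benjamini-Hochberg). Mip, Aqp2, Aqp6 and Aqp12 were not analysed here.

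Neighbouring genes are given for comparison. Leaving out the aquaporins that neighbour each other, of which Aqp3 and Aqp7 are described above, 12 annotated protein-coding genes lie within 50 kb of the 8 genes. Of these 8 were tested, 1 was called higher, 0 were called lower and 7 were not called. Over all tested genes 12.4% were called higher and 12.7% lower, so nothing is read from so small a count. Nol6, a ribosome biogenesis gene 16244 bases from Aqp3, rose from 26.0 ± 1.69 to 59.5 ± 10.01 CPM (SD, n = 3), or by 1.19 on the log2 scale (standard error 0.16), at an adjusted p of 4.6e-04 (Benjamini-Hochberg, edgeR). Near Aqp7, whose log2 fold change was -2.39, Nfx1 had 0.19, and on the far side of Aqp3 Ube2r2 had -0.10. Lcmt1, on the 5′ side of Aqp8, had -0.22. Beside Aqp11, Clns1a had 0.05 and Rsf1 0.01. Racgap1, beside Aqp5, had 0.29 and Aldh1a2, beside Aqp9, had -0.38. The neighbours of Aqp1, Mindy4 and Ghrhr, were too low to test, at 0.123 ± 0.0382 and 0.0465 ± 0.0471 CPM (SD, n = 3) in control IEC.

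Genes that move the salt, glycerol and hydrogen peroxide on which aquaporins act were described from lists, each by its count and median beside the 25.2% called and the median of -0.01 over all tested genes. In the list of fluid and salt absorption, 4 of 20 tested genes were called lower, 1 higher and 15 not called, with a median log2 fold change of -0.06. The carbonic anhydrases Car4 and Car2, which supply bicarbonate and protons for sodium chloride absorption, fell from 97.2 ± 49.3 to 2.30 ± 2.89 CPM and from 50.9 ± 21.0 to 4.82 ± 1.13 CPM (SD, n = 3). Their log2 fold changes were -5.48 (standard error 1.17) and -3.41 (standard error 0.36), at adjusted p of 0.017 and 2.3e-04 (Benjamini-Hochberg, edgeR). The chloride-bicarbonate exchanger Slc26a3, also on the colon marker list, fell by 1.32 on the log2 scale, and Pdzk1, a scaffold of apical transporters, fell by 1.10. Slc4a2, a basolateral anion exchanger, rose by 1.34. The sodium-glucose cotransporter Slc5a1 was not called, at -0.02, with 3687 ± 1258 CPM in control and 3640 ± 618 CPM in Hdac1/2-deleted IEC (SD, n = 3). Car4 was not called without C1, and Pdzk1 not without H1, at -0.97.

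In the list of chloride and fluid secretion, 1 of 13 tested genes was called higher, 1 lower and 11 not called, with a median log2 fold change of -0.27. The calcium-activated chloride channel Ano1 rose by 1.13 (standard error 0.33) and the peptide uroguanylin, Guca2b, fell by 1.05 (standard error 0.24). Its receptor Gucy2c had -0.92 and the VIP receptor Vipr1 -0.27, neither called. The calls were close to the limits, since Ano1 was not called without H5 (0.93), C3 (1.06) or C3-3 (0.97), nor Guca2b without H1 (-0.83) or C3-3 (-0.98).

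In the list of glycerol metabolism, 2 of 14 tested genes were called higher, 1 lower and 11 not called, with a median log2 fold change of -0.26. Gpam and Gpd1l, which act on the way from glycolysis to glycerolipids, rose by 1.25 (standard error 0.21) and 1.20 (standard error 0.17). Gk, the kinase that traps glycerol once an aquaglyceroporin has let it in, fell by 1.01 (standard error 0.17), from 210 ± 11.7 to 104 ± 21.0 CPM (SD, n = 3). That value lay so near 2-fold that Gk was not called under 6 of 13 alternatives, the lowest being -0.83 with library totals alone. Gpd1 had 0.92 and Dgat1 -0.71, neither called.

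In the list of osmotic and cell volume response, 4 of 16 tested genes were called higher, 1 lower and 11 not called, with a median log2 fold change of 0.19. The kinase Wnk4, a regulator of chloride cotransporters, rose by 2.11 (standard error 0.27), and the inositol carrier Slc5a3 rose by 1.795 (standard error 0.37). Lrrc8e, a subunit of the volume-regulated anion channel, and the betaine carrier Slc6a12 were the other calls upwards, at low levels, with means of 2.89 ± 0.602 and 0.445 ± 0.136 CPM (SD, n = 3) in Hdac1/2-deleted IEC, and Slc6a12, at 1.91, was not called without H9 (1.63) or C1 (1.504). The subunit Lrrc8b fell by 1.07 (standard error 0.18) and was not called without H5 (-0.93) or C3 (-0.997). Slc6a6 had 0.58 and Lrrc8d 0.35, neither called.

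In the list of hydrogen peroxide sources and sinks, 5 of 17 tested genes were called higher, 3 lower and 9 not called, with a median log2 fold change of 0.43. The sources that rose were Duox2 and its maturation factor Duoxa2, at 3.17 (standard error 0.84) and 5.10 (standard error 0.84), and the oxidase subunits Cyba and Noxa1, at 2.41 (standard error 0.17) and 2.03 (standard error 0.17). Duoxa2 was 12.01, 36.9 and 5.07 CPM in H1, H5 and H9 and at most 0.772 CPM in control mice. Among the sinks, the peroxidase Gpx2 rose by 1.32 (standard error 0.36), and catalase, Cat, fell by 1.36 (standard error 0.17), from 878 ± 123 to 342 ± 41.8 CPM (SD, n = 3). Prdx4 and the oxidase organizer Noxo1 were the other calls downwards, Noxo1 at -1.05 and not called without C3 (-0.82), and the abundant peroxiredoxins Prdx1 and Prdx5 had -0.10 and -0.28, neither called. Gpx2 was 0.77 without H5 and not called, and neither Duox2 nor Gpx2 was called when any 1 of the 3 controls was left out. With library totals in place of TMM factors, Pdzk1 (-0.92), Guca2b (-0.88), Lrrc8b (-0.88) and Noxo1 (-0.84) also lost their calls and Gpd1 (1.12) gained one.

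**Figure D4:**
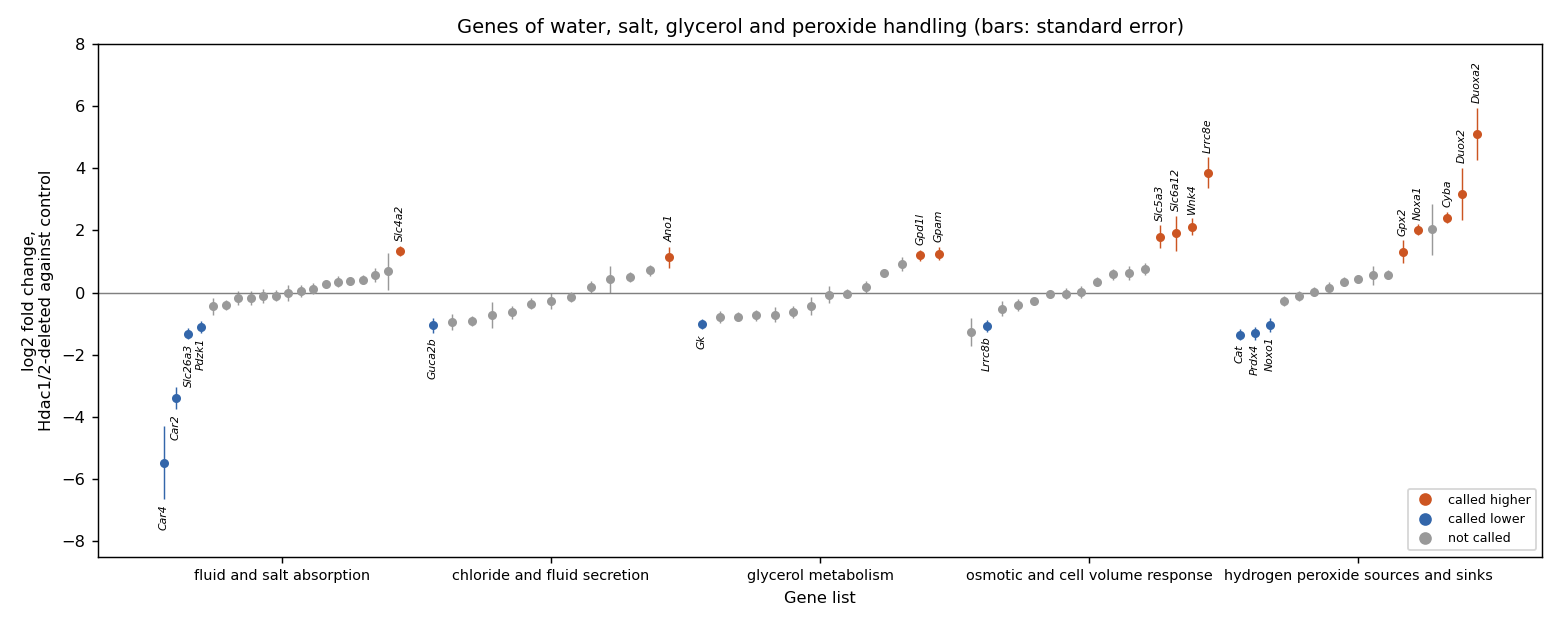
Log2 fold change of each tested gene of the 5 lists, Hdac1/2-deleted against control, with standard errors as bars; orange points were called higher, blue lower and grey not called, and called genes are named. Car4 and Car2 lie lowest, and Duoxa2, Lrrc8e and Duox2 highest, while most points lie between -1 and 1.

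The genes whose levels went most like each aquaporin over the 6 mice were sought among the 11074 tested genes that averaged 1 or more in log2 CPM, by Pearson's correlation of log2 CPM. The 6 points are 2 groups of 3 mice, so a high value mostly repeats the difference between groups. The nearest were Parn, Fbxo4 and Zfp784 for Aqp1 (0.998, 0.997 and 0.997), Por, Chpf2 and 9330121J05Rik for Aqp7 (0.999, 0.995 and 0.993), and Parp9, Dera and Trappc12 for Aqp8 (0.999, 0.996 and 0.996). For Aqp11 they were Itgb4, Rps6ka1 and Glmp (0.997, 0.997 and 0.996), and for Aqp4 Mad1l1, Jade2 and Atp5l (0.994, 0.992 and 0.986). For Aqp3 they were Rap1gds1, Fam213b and Prss30 (0.972, 0.972 and 0.968). At least 0.9 was reached by 1633 genes for Aqp1, 1252 for Aqp8, 1157 for Aqp7, 857 for Aqp11 and 457 for Aqp4, but by 41 for Aqp3. For the 2 further family members, Ncoa1, Klc2 and Gadd45gip1 were nearest to Aqp5 (0.998, 0.996 and 0.996), and Arih1, Dcun1d2 and Pdrg1 to Aqp9 (0.983, 0.977 and 0.974).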

How the data were processed

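Poly(A) RNA of EDTA-enriched jejunal IEC was sequenced from 3 control and 3 Hdac1/2-deleted mice, with a strand-keeping kit and 1 library per mouse. The authors deposited raw counts of reads per gene for 19616 genes. The paper's methods name STAR and GRCm38, and the submitters' processing notes name STAR 2.4.0f1, bcl2fastq 1.8.4 and the build mm9. The counting program, annotation and strand setting are not given in the sources used here. The same table holds scaled counts, fold changes, mean log2 CPM and p-values of the authors' own comparison, which were not used.

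The counts were filtered with filterByExpr, scaled with TMM and fitted with edgeR 4.0.16 (robust quasi-likelihood, prior count 0.125, no covariates) in R 4.3.3 with limma 3.58.1. Benjamini-Hochberg adjustment ran over 15618 genes, and a call needed a 2-fold change and an adjusted p no higher than 0.05. Methods were tested on simulated data. An exact permutation test of 3 against 3 mice cannot go below 0.1. Depth was 58017009 to 65902344 counts in control and 36111035 to 65230566 in Hdac1/2-deleted mice. Exact counting intervals were computed with scipy 1.17.1. Alternatives used size factors of the DESeq2 kind, library totals, DESeq2 1.42.0, other filters, a prior count of 2, a non-robust fit, no fold limit, another gene length, and left out each mouse in turn. Plots were made with matplotlib 3.10.9 in Python 3.11.15.

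Positions came from GENCODE M21, and promoter windows from RefSeq on GRCm38.p6, which gave 9 windows for 7 aquaporin genes outside chromosome 18. Exon lengths are the union of annotated exons.

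The aquaporins, lists and rules were chosen with earlier results of these data known. Named genes were all aquaporins in the table, every tested neighbour within 50 kb, Hdac1 and Hdac2, the 3 genes most like each aquaporin, and from each list at most 6 called genes of largest fold change and at most 2 uncalled genes of highest level, the called ones averaging 1 or more in log2 CPM. Other genes named (marker genes, Lrrc8e, Slc6a12, Prdx4, Noxo1, the genes with a high ratio of C3 to the other controls) were chosen after their values were seen. Of the genes this rule names, 1 is not reported here.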

Additional observations from a re-analysis of the deposited data

How the results depend on the processing

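Of 618 log2 fold changes recomputed for named genes under the alternatives, 569 kept their direction and their side of the limits, 31 were no longer called, 9 became called and 9 changed sign. Without a fold limit, 3198 genes passed higher and 3168 lower, against 1944 and 1990 called. With library totals alone the split was 2463 higher and 1538 lower, Aqp4 was called at 1.17, and Slc5a1 (0.17), Prdx1 (0.088) and Ube2r2 (0.087) changed sign. Leaving out 1 mouse gave 1841 to 2109 genes higher and 1790 to 2012 lower. It gave log2 fold changes of -5.26 to -4.27 for Aqp1, -1.08 to -0.059 for Aqp3, 0.68 to 1.14 for Aqp4, -2.70 to -2.13 for Aqp7, -8.60 to -5.88 for Aqp8 and 0.42 to 0.59 for Aqp11. The other changes of sign, all in uncalled genes, came from leaving out 1 mouse, with ranges of -0.19 to 0.30 for Slc5a1, -0.086 to 0.13 for Rsf1 and -0.011 to 0.13 for Clns1a. The cause of these changes was not tested. DESeq2 gave no adjusted p for Aqp8, with a log2 fold change of -8.02. Of 156 counts of called genes per list, 135 stayed within 1.5 times and 21 moved. Gk, whose value was -1.01, fell under the 2-fold limit most often. No paired analysis was possible because the mouse labels of the groups share fewer than 2 numbers. At these depths Aqp8 and Aqp5 rest on 10 to 15 counts and 0 to 1 counts in their lower group.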
